A study of Mus musculus with 4 samples.

Results

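DNA methylation in mouse embryonic stem cells is written and removed by a small set of enzymes, and the m6A peaks of 8 transcripts that encode them are described here. These are the Tet dioxygenases Tet1, Tet2 and Tet3, the DNA methyltransferases Dnmt1, Dnmt3a and Dnmt3b, the methyltransferase cofactor Dnmt3l, and Uhrf1, which brings Dnmt1 to newly replicated DNA. The members were chosen by gene symbol, with earlier results of these data known, and were kept whether or not they had a peak. Of the 8, 5 were among the 9949 genes with a peak in any list, and they held 28 of the 46417 peaks. Dnmt1, Dnmt3b and Dnmt3l had no peak among those analysed here.

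The series profiled N6-methyladenosine (m6A) in RNA of embryonic stem cells of the mouse strain C57BL/6N, either wild type or Mettl5-/-, with 2 libraries of each genotype. Fragmented total RNA was pulled down with an antibody against m6A and sequenced, and each library has a peak list of its own (10821 to 12699 peaks). Mettl5 methylates ribosomal RNA and is not part of the mRNA m6A writer. The protocols in the labels also describe embryoid body and neural differentiation, but the labelled source of all 4 libraries is embryonic stem cells. The labels name no clone, passage or separate culture, so the spread between libraries of a genotype may be technical.

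Of 8 stem cell markers, 6 had a peak in all 4 lists and Nanog and Zfp42 had none. Vim was the 1 of 5 feeder fibroblast markers with a peak, and it had one in all lists. Of 4 neural markers, 2 had a peak in all lists and 3 in any list. Of 3 primitive endoderm markers, 0 had a peak in all lists and 1 in any list. A peak list records methylated RNA and not RNA level, so this is a weak check of the cell type. The deleted gene Mettl5 had no peak in any list, so the lists do not check the genotype labels. In such bulk samples, fewer cells of a type and less RNA per cell cannot be told apart.

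As background, m6A in mRNA is placed by the Mettl3 and Mettl14 complex, lies mostly in long exons and near stop codons, and is read by YTH-domain proteins that can shorten the life of a transcript. Tet enzymes oxidise 5-methylcytosine in DNA, which starts its removal. Dnmt3a and Dnmt3b set new methylation with the help of Dnmt3l, while Dnmt1 and Uhrf1 copy it after replication. Tet1 and Tet2 are the Tet enzymes usually linked to embryonic stem cells, and Tet3 is known for its role in the oocyte and zygote.

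Peaks of the 4 lists were joined into a region where their exon blocks overlapped by at least 1 bp. The members had 12 regions, numbered below from 5′ to 3′ within each gene. Strength is the percentile of a peak's p-value within its own list, 100 being the strongest. Fold is the authors' enrichment of a peak over a background that the lists do not name. Both describe a peak within its own list. Folds of different lists are set side by side below as listed values, with no test, and their differences do not measure a change in m6A.

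**Figure D1:**
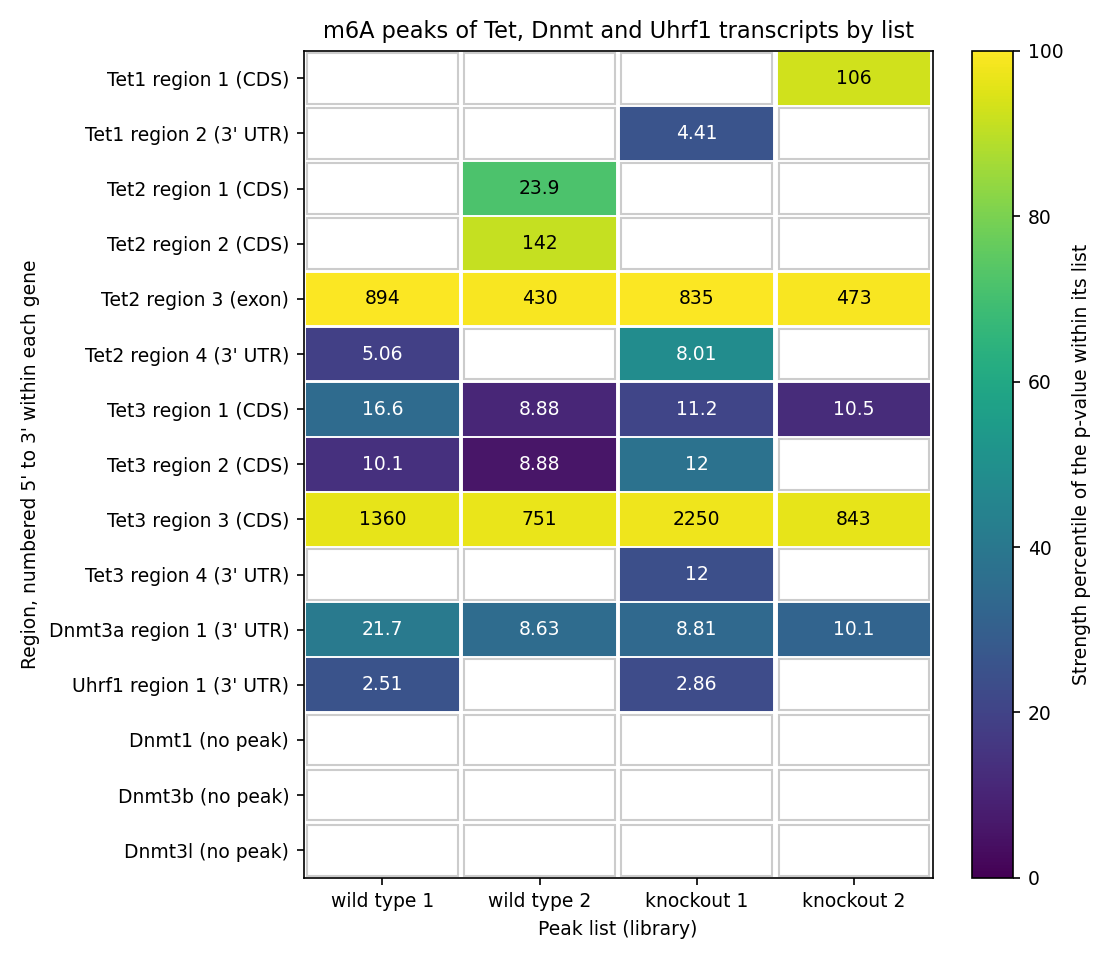
Each row is a region of a member transcript and each column a peak list. Colour gives the strength percentile of the peak within its list, the number in a cell its fold, and an empty cell no peak. Tet2 region 3 and Tet3 region 3 are strong in all 4 columns, with percentiles from 96.3 to 99.5, and no row is filled in both libraries of 1 genotype alone.

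Tet2, a Tet enzyme that lacks the CXXC DNA-binding domain found in Tet1 and Tet3, carried the strongest peak of the set by p-value. The gene lies on the minus strand of chromosome 3, positions 133463677 to 133545136 (mm10). Region 3 spanned positions 133466106 to 133469708, in exons to which the authors gave no finer class. Its p-value had no finite log10 in any list, which ties it for first place with all peaks of that kind: 152 peaks in wild type 1, 192 in wild type 2, 139 in knockout 1 and 200 in knockout 2. The fold was 894 in wild type 1, 430 in wild type 2, 835 in knockout 1 and 473 in knockout 2. The folds of the genotypes overlapped, with the highest and the lowest both in wild type.

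The Tet2 peak was made of 2 exon blocks in each list, 1085 bp apart in the genome. The block nearer the 3′ end ran from position 133466136 to 133468190 in 3 lists and reached 30 bp further downstream, to 133466106, in wild type 2. The upstream block started at the same inner position, 133469276, in all 4 lists and varied at its outer end. It held 193 bp in wild type 1, 133 bp in wild type 2, 433 bp in knockout 1 and 223 bp in knockout 2. The bulk of the peak, 2055 to 2085 bp of it, therefore lay in a single block, whose 3′ edge is 2429 to 2459 bp before the 3′ end of the gene.

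Farther upstream, the Tet2 transcript had a pair of coding-sequence peaks in wild type 2 alone. Region 2 covered 1978 bp at positions 133485529 to 133487506, with a fold of 142 and a percentile of 91.3. Region 1 covered 810 bp at positions 133487896 to 133488705, with a fold of 23.9 and a percentile of 71.6. A gap of 389 bp separated them. Single-list regions were common, at 28.3% of all 15487 regions, but most were weak. Wild type 2 had 744 regions found in no other list, with a median percentile of 13.3, and 23 of them (3.09%) were as strong as Tet2 region 2 or stronger.

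Close to the 3′ end, a weak peak in the 3′ untranslated region of Tet2 (region 4) was listed in wild type 1 and knockout 1. It covered 181 bp at a fold of 5.06 and a percentile of 18.9 in wild type 1, and 571 bp at a fold of 8.01 and a percentile of 48.4 in knockout 1. Wild type 2 and knockout 2 listed no peak there, so 1 library of each genotype had the region.

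Tet3 had a peak of almost the same rank in each list. The gene lies on the minus strand of chromosome 6, positions 83362373 to 83457208. Its strong peak (region 3) lay in coding sequence in a single block, positions 83368157 to 83369506, and 1230 bp of it were common to all 4 lists. The percentile was 96.3 in wild type 1, 96.7 in wild type 2, 97.5 in knockout 1 and 96.4 in knockout 2. The fold was 1360, 751, 2250 and 843 in the same order. In knockout 1 only 9 peaks of the list had a higher fold.

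The folds of Tet2 region 3 and Tet3 region 3 were both higher in wild type 1 and knockout 1 than in wild type 2 and knockout 2. Over the 431 regions of all lists with a mean percentile of 95 or more, the median fold was 408 in wild type 1, 321 in wild type 2, 406 in knockout 1 and 242 in knockout 2. The part of the library in the folds of the members was not tested.

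Upstream, the Tet3 coding sequence held a pair of weak peaks, 33170 to 33709 bp from the strong one in the genome. Region 1, positions 83403036 to 83403486, was found in all 4 lists, at folds of 16.6 and 8.88 in wild type 1 and 2, and 11.2 and 10.5 in knockout 1 and 2. The percentiles were 34.7, 10.8, 20.7 and 12.4, which places it in the weaker part of each list. Region 2, positions 83402677 to 83402976, was found in all lists except knockout 2, at folds of 10.1, 8.88 and 12 and percentiles of 14.0, 5.80 and 37.6. The 2 regions were 59 to 209 bp apart where both were listed. A peak of 181 bp in the 3′ untranslated region (region 4) was listed in knockout 1 alone, at a fold of 12 and a percentile of 24.2. Of the 1913 regions found in knockout 1 alone, 590 (30.8%) were as strong or stronger.

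**Figure D2:**
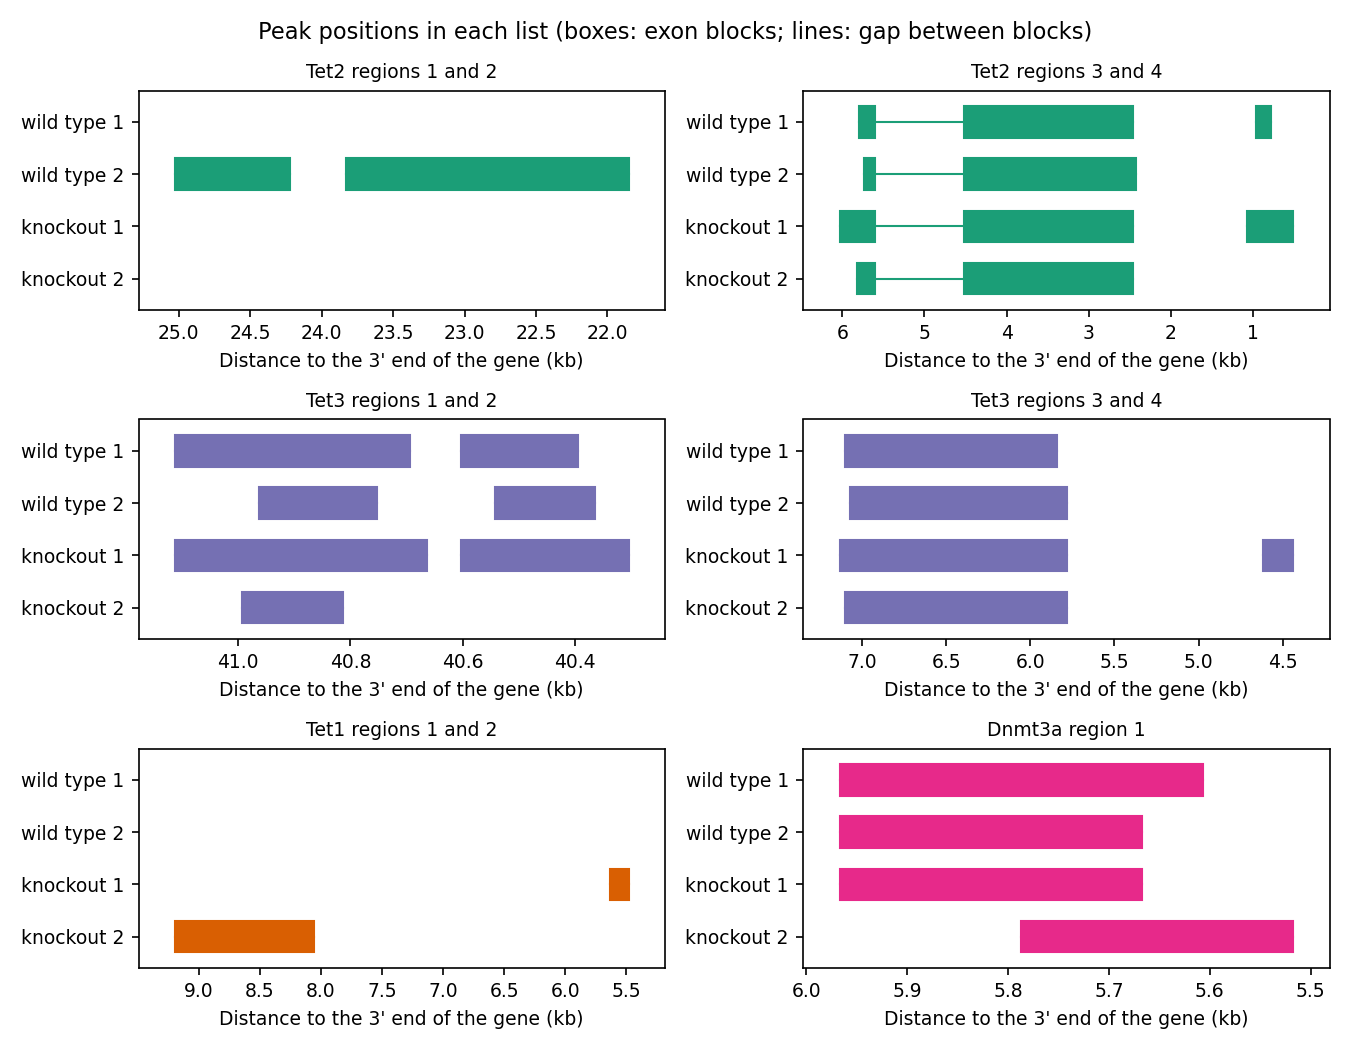
Peak positions of Tet2, Tet3, Tet1 and Dnmt3a in each list, as distance in kb to the 3′ end of the gene in RefSeq, with the 5′ side on the left. Boxes are exon blocks and thin lines the gap within a peak, and each panel has its own scale. Tet3 region 3 has nearly the same ends in all 4 lists, while the 5′ end of Tet2 region 3 varies by up to 300 bp. Tet2 regions 1 and 2 appear in wild type 2 alone, and the Dnmt3a peak of knockout 2 is shifted towards the 3′ end.

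Tet1, which binds CpG-rich promoters in stem cells, was listed in both knockout libraries and in neither wild-type library, but at different places. The gene lies on the minus strand of chromosome 10, positions 62804570 to 62887469. In knockout 2 the peak covered 1140 bp of coding sequence at positions 62812627 to 62813766, with a fold of 106 and a percentile of 92.6, rank 796 of 10821. In knockout 1 it covered 151 bp of the 3′ untranslated region at positions 62810051 to 62810201, with a fold of 4.41, a percentile of 26 and the authors' adjusted p-value of 0.00162. The coding peak lies 8057 bp from the 3′ end of the gene and the other 5481 bp, so they do not overlap.

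Neither Tet1 region had a counterpart in any other list. Of the 702 regions found in knockout 2 alone, 42 (5.98%) were as strong as the Tet1 coding peak or stronger. Knockout 1 had 1913 regions found in no other list, with a median percentile of 14.6. Of these, 499 (26.1%) were as strong as the Tet1 peak in the 3′ untranslated region or stronger. Knockout 2 also had the largest share of strong peaks without a counterpart: 5.36% of its strongest 10% lay in no other list, against 3.59% in wild type 1, 2.41% in wild type 2 and 1.97% in knockout 1. The part of the library in the Tet1 result was not tested. Inside the Tet1 gene, knockout 1 also listed a peak of the unconfirmed transcript AC166359.1, at positions 62859875 to 62859994 and a fold of 6.01. It is listed on the minus strand, that of Tet1.

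Among the methyltransferases that set new methylation, Dnmt3a alone had a peak. The gene lies on the plus strand of chromosome 12, positions 3801559 to 3914443, and its single region lay in the 3′ untranslated region, at 3908476 to 3908926. It was weak in every list. The percentile was 41.0 in wild type 1, 34.8 in wild type 2, 33.8 in knockout 1 and 32.0 in knockout 2. The fold was 21.7, 8.63, 8.81 and 10.1 in the same order, so the highest and the lowest fold were both in wild type.

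The Dnmt3a peak started at position 3908476 in 3 lists and at 3908656 in knockout 2, a shift of 180 bp. The stretch common to all 4 lists was 121 bp. All 58 pairs of peak ends compared within the members' regions differed by a multiple of 30 bp. Dnmt3b (chromosome 2, positions 153649411 to 153687730) and Dnmt3l (chromosome 10, positions 78042287 to 78063622) had no peak of their own, and no peak of another gene lay inside them.

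For the copying of methylation, Uhrf1 had a weak peak and Dnmt1 (chromosome 9, positions 20907206 to 20959888) had none. The Uhrf1 peak lay in the 3′ untranslated region on the plus strand of chromosome 17, positions 56322496 to 56322706. It was listed in wild type 1 at a fold of 2.51 and in knockout 1 at a fold of 2.86, with 181 bp in each. By p-value these were at percentiles 25.5 and 22.8, and by fold at 1.14 and 1.54, near the bottom of their lists. Wild type 2 and knockout 2 listed no Uhrf1 peak. The absence of a peak for Dnmt1, Dnmt3b or Dnmt3l does not show that the RNA was unmethylated, since the read depth and the RNA levels were not analysed here.

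**Figure D3:**
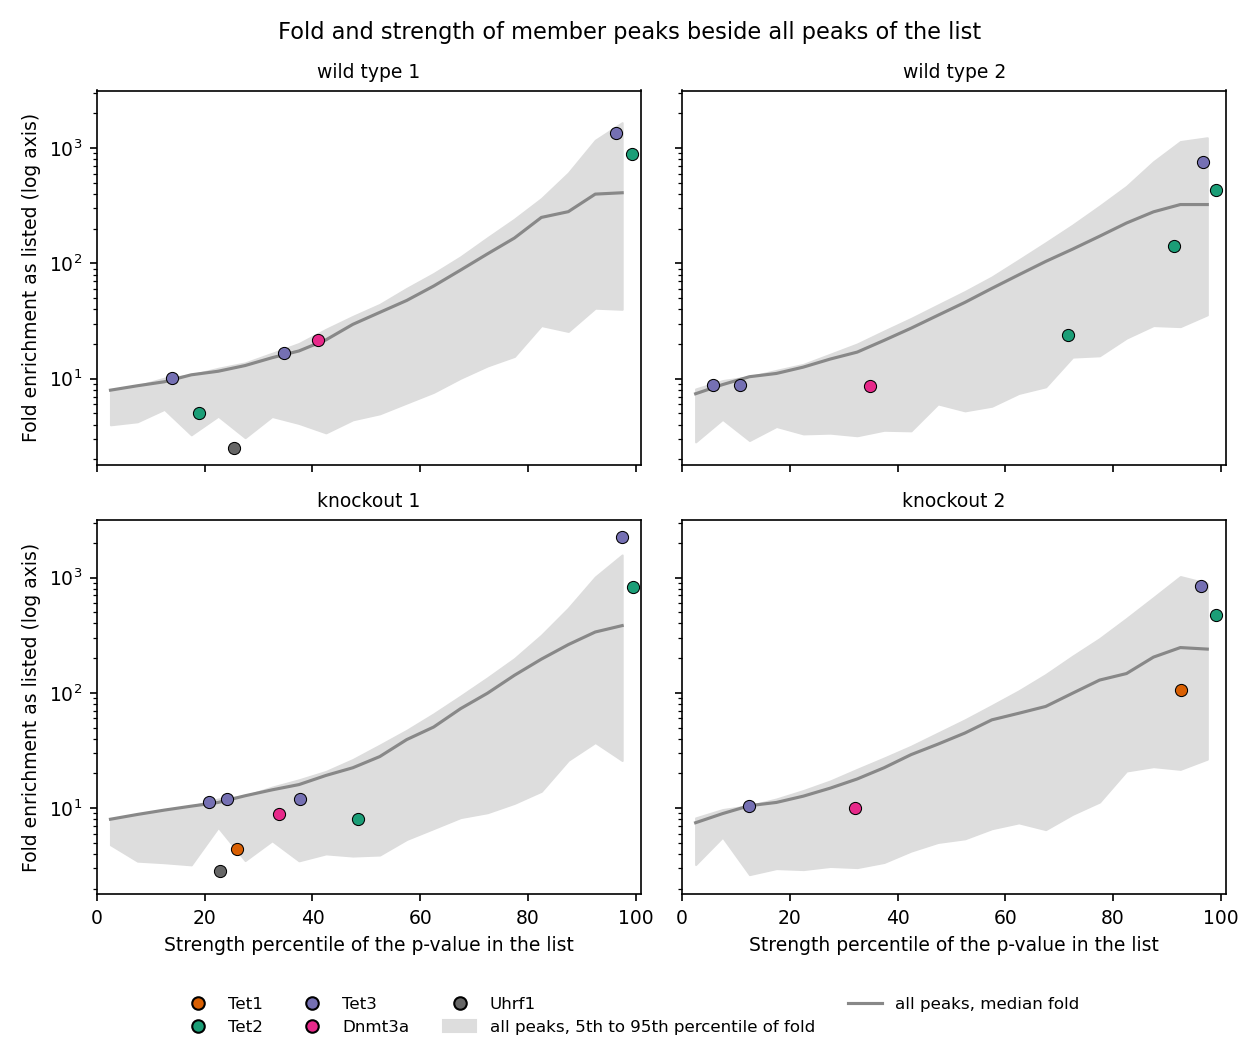
Fold as listed (log axis) against the strength percentile of the p-value, 1 panel per list. Points are member peaks coloured by gene, and the grey line and band give the median and the 5th to 95th percentile of the fold over all peaks in bins of 5 percentiles. Tet3 region 3 lies above the median line in each list, at folds of 751 to 2250, while Uhrf1 lies below the band in both of its lists, at folds of 2.51 and 2.86.

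Among the member peaks, the wide ones were the strong ones. The 11 member peaks of 800 bp or more had percentiles of 71.6 or higher and folds from 23.9 to 2250. The 17 narrower ones had percentiles of 48.4 or lower and folds from 2.51 to 21.7. No member peak was between 571 and 810 bp wide, and the bound lies in that gap. Peaks are counted once per list here, and Tet2 region 3 and Tet3 region 3, each in 4 lists, gave most of the wide ones. The relation of width and strength was not tested. Over all genes, the median percentile was 88.0 for peaks of 800 bp or more and 41.9 for narrower ones. Such wide peaks made up 39.3% of the member peaks and 16.4% of all peaks.

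By transcript class, 14 of the 28 member peaks (50%) lay in coding sequence, 10 (35.7%) in the 3′ untranslated region and 4 (14.3%) in exons with no finer class, and none in the 5′ untranslated region. The same shares over all peaks were 35.2%, 38.5%, 21.6% and 4.67%. The 4 peaks without a finer class were all Tet2 region 3. By base pairs, the 3′ untranslated region held 11.6% of the members' peak length and exons with no finer class 40.1%, beside 34% and 18.4% over all genes. Coding sequence held 48.2%, beside 44.3% over all genes, so by length its share was closer to that of all genes than by count. In these shares a region counts once for each list that holds it. All 6 of the Dnmt3a and Uhrf1 peaks were in the 3′ untranslated region. They came from 1 Dnmt3a region in 4 lists and 1 Uhrf1 region in 2 lists. The Tet genes had 4 of 22 peaks there, in Tet1 region 2, Tet2 region 4 and Tet3 region 4. Tet1 had 2 regions in all, and Tet2 and Tet3 had 4 each.

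By p-value, the order of the members was nearly the same in each list. Tet2 came first and Tet3 second in all 4, followed by Dnmt3a in wild type 1, wild type 2 and knockout 1, and by Tet1 in knockout 2. The mean percentile of the best peak was 99.3 ± 0.176 (SD, n = 4 lists) for Tet2, 96.7 ± 0.527 for Tet3 and 35.4 ± 3.90 for Dnmt3a. The Tet2 value is that of a tie for first place, so its SD reflects the number of tied peaks in each list and was not set against the gap to Tet3. By fold, Tet3 stood above Tet2 in all 4 lists, at fold percentiles of 98.2 to 99.9 for Tet3 and 94.2 to 98.7 for Tet2. The gap between Tet3 and Dnmt3a was larger than the spread of either. Uhrf1 (24.1 ± 1.88 over 2 lists) lay below Dnmt3a, and Tet1 had no single level, at 26 and 92.6. The 3 members in all lists had a median of 96.7, beside 66.4 for all 5683 genes in all lists.

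The comparison of genotypes asks whether m6A on these transcripts differed without Mettl5. Of the 5 members with a peak in any list, 3 (Tet2, Tet3 and Dnmt3a) had one in all 4 lists, as did 57.1% of the 9949 genes with a peak. None of the 5 had one in both wild-type lists and neither knockout list, where 1.56% of those genes did. The reverse held for Tet1 alone, 1 of the 5, where 2.27% of those genes did. With the stronger 50% of each list, Tet1 was left in 1 list and this count was 0. With a single member called, nothing particular to the set can be read from this.

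Region by region, no member followed the genotype. Of the 12 regions, 4 were in all 4 lists (42.5% of all regions) and 1 in 3 lists (14.2%). A further 2 were in 2 lists (15%) and 5 in 1 list (28.3%). Both regions of 2 lists, in Tet2 and Uhrf1, were those of wild type 1 and knockout 1. The share of all regions in that pair of lists is not given here. None (0 of 12) was in both lists of 1 genotype and neither of the other, which was true of 2.02% of all regions for wild type and 2.51% for the knockout. With shares this low over all regions, nothing particular to the set can be read from 0 of 12. Leaving out any 1 library, so that 1 list stands for a genotype, gave 0 to 2 such regions for either genotype.

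The number of member peaks per list did not separate the genotypes. It was 7 in both wild-type lists, 9 in knockout 1 and 5 in knockout 2, so that the wild-type mean was 7 ± 0 and the knockout mean 7 ± 2.83 (SD, n = 2 each, exact permutation test, two-sided, p = 1). The summed length of the member peaks was 4862 and 6988 bp in wild type 1 and 2, and 5974 and 5190 bp in knockout 1 and 2. The means of 5925 ± 1503 bp and 5582 ± 554 bp (SD, n = 2 each) differed by less than either spread. With 2 libraries against 2, the smallest p that the exact permutation test allows is 0.333, so no difference between the genotypes could pass a threshold of 0.05.

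Genes that act with the Tet and Dnmt proteins were listed for comparison. Of 64 such genes, 41 had a peak in any list and 22 of those (53.7%) in all 4 lists, near the share of all genes. Among genes with a peak, 6 of 12 partners of 5-methylcytosine oxidation and base excision were in all 4 lists. The readers of methylated CpG gave 6 of 9, and the partners of maintenance and new methylation 8 of 16. Methyl donor supply gave 2 of 4. With genes without a peak counted, the groups held 19, 11, 27 and 7 genes in the same order. A DNA methyltransferase gene without a peak was also placed in the methyl donor group. Of the 64 symbols, 2 were not current RefSeq names and had no peak. The 22 genes had a median of the mean percentile of 86.4, beside 66.4 over all genes in all lists.

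The 8 strongest of these were Nsd1, Zfp445, Zbtb24, Zbtb38, Setd2, Hcfc1, Mbd4 and Mat2a, with mean percentiles from 93.7 to 99.1. Nsd1, a histone methyltransferase whose mark on H3K36 is bound by Dnmt3a, stood closest to Tet2 at 99.1 ± 0.336 (SD, n = 4 lists) and folds of 295 to 987. In wild type 2, knockout 1 and knockout 2 it shared the tie for first place with Tet2. Zfp445, Zbtb24, Zbtb38 and Setd2 were also in that tie in some lists. The means and SDs of these genes therefore partly reflect the number of tied peaks, and their order is not a fine ranking. Zbtb24, a zinc finger protein mutated in a syndrome of lost DNA methylation, and Zfp445, which protects imprints, both had a mean percentile of 98.8. Zbtb38 binds methylated DNA (97.9 ± 1.38), and Setd2 writes trimethylation on H3K36 (97.9 ± 2.88). Hcfc1, which joins Tet proteins and the glycosyltransferase Ogt in one complex, reached 97.3 ± 0.664. Mbd4, a glycosylase with a methyl-CpG-binding domain, was at 96.7 ± 0.266. Mat2a, which makes the methyl donor S-adenosylmethionine, was at 93.7 ± 1.5.

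Few of the 64 followed the genotype. Mtrr, the reductase that keeps methionine synthase active, was the 1 gene listed in wild type alone, of the 41 with a peak. Its peak had the same ends in both wild-type lists, positions 68562005 to 68562423 of chromosome 13 in the 3′ untranslated region, at folds of 100 and 126 and percentiles of 93.9 and 93.2. Over all 9949 genes with a peak, 1.56% were listed in wild type alone. With a single related gene called, nothing particular to the set can be read from this. RNA levels and read depth were not analysed here, so the absence of Mtrr from the knockout lists does not show a loss of m6A. A further 17 of the 41 genes with a peak were listed in 1 to 3 lists without following the genotype. Over all 9949 genes, 57.1% were in all lists, 1.56% in wild type alone and 2.27% in the knockout alone. The rest were in 1 to 3 lists without following the genotype, so the count of 17 is not read as particular to the set. Chosen after their values were seen, Ogt, which binds Tet proteins, had weak peaks in all lists (folds of 5.06 to 8.96), and the glycosylase Tdg, the ubiquitin protease Usp7 and the methylation-protecting factor Dppa3 had none among those analysed.

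**Figure D4:**
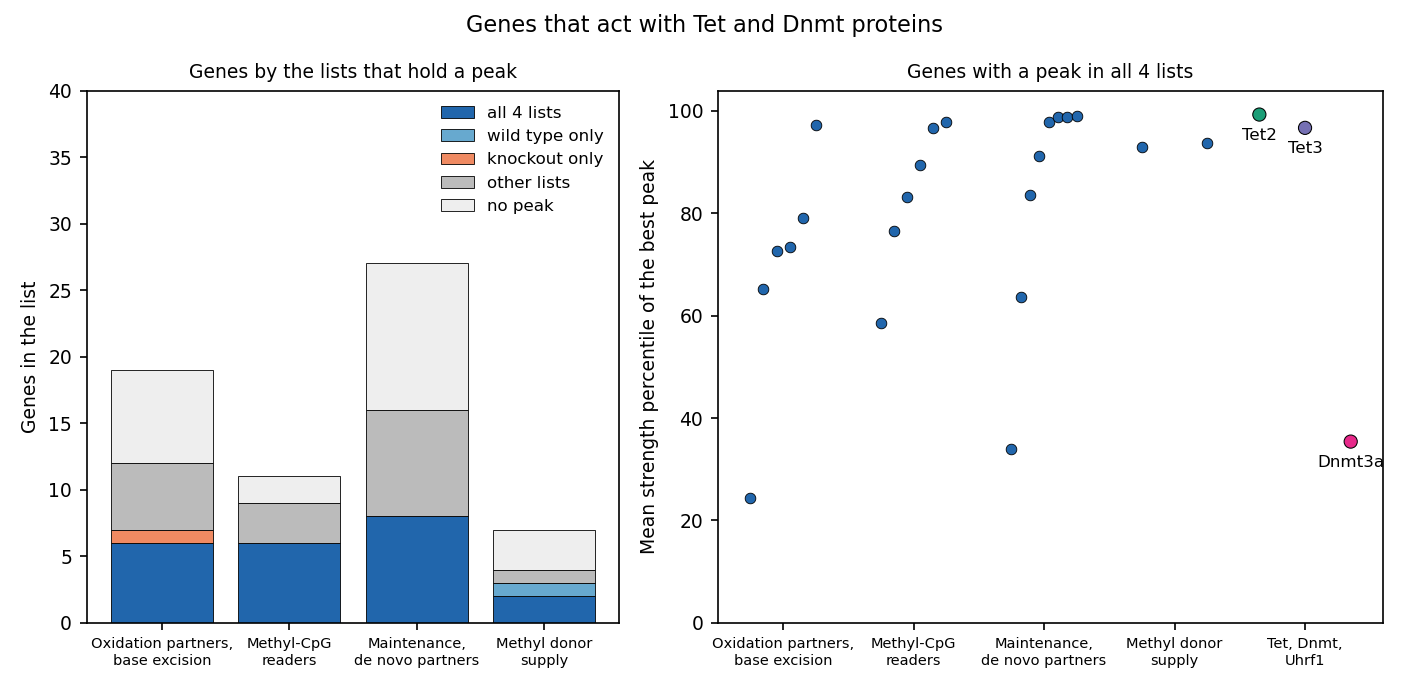
The left panel counts the genes of each related group by the lists that hold a peak. The right panel shows the mean strength percentile of the best peak over the 4 lists, 1 point per gene, for related genes in all lists and for Tet2, Tet3 and Dnmt3a. Tet2 and Tet3, at 99.3 and 96.7, lie among the strongest related genes, and Dnmt3a, at 35.4, lies below all but 2 of the related genes.

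Likeness to a member was measured as the mean absolute difference in the percentile of the best peak, over genes present in the same lists. For Tet2, 17 genes had a difference of 0, since their peaks are tied for first place in all 4 lists. The 3 genes nearest to Tet3 were Ankrd50 (a difference of 0.116), Gpank1 (0.119) and Zbtb18 (0.178), over 4 lists. Nearest to Dnmt3a were Phf8 (1.55), Gm12100 (1.62) and Mydgf (2.14), also over 4 lists. Over the 2 knockout lists, the nearest to Tet1 were Msantd4 (8.78), Zmym2 (9.34) and Oxa1l (11.9). Over wild type 1 and knockout 1, Naf1 (1.66), Gm16411 (1.90) and Mia3 (2.32) were nearest to Uhrf1. The percentiles share their libraries and lists, so these are descriptions of rank alone.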

How the data were processed

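Per the labels' protocols, fragmented total RNA was precipitated with an antibody against m6A. HISAT2, HOMER and the build mm10 are listed, without roles, in the submitters' processing notes. Which tool called peaks, how and against what input is not given in the sources used here. Each deposited list gives, per the file headers, a position, exon blocks, a gene, a class, a p-value, its log10 as a score with that of the adjusted p-value, and a fold, which is a ratio. Libraries were grouped by labelled genotype, and the numbers of the wild-type libraries are names that pair nothing.

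Peaks off the reference chromosomes (3 to 6 per list) were left out. Starts were counted from 1. Ties share their mean rank. The members and gene lists were chosen with earlier results of these data known. Named genes were all members, related genes that followed the genotype (1 is not reported here), the 8 strongest related genes in all lists, and the 3 nearest genes to each member. Ogt, Tdg, Usp7 and Dppa3 fall outside this rule and were chosen after their values were seen. Gene positions come from RefSeq GRCm38.p6, the assembly of mm10, where 62 of 64 related symbols were current. Peak sequences were not analysed here. Region joining was tested on simulated lists. Python 3.11.15, numpy 2.4.6, pandas 2.3.3 and matplotlib 3.10.9 were used. Alternatives were an overlap of 50% of both peaks, joining within 100 bp, whole spans, an adjusted p-value under 0.05, the stronger 50% of each list, lists of 10821 peaks each, strength by fold or among the best peaks of genes, weighting by base pairs, and leaving out each library. Peaks under the member's own gene alone, and a region of its own that follows the genotype, were added after seeing the data.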

Additional observations from a re-analysis of the deposited data

How the results depend on the processing

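Of 75 alternative values for the counts, medians and shares, 65 stayed within 1.5 times the reported count or within 1 SD over the lists. In the stronger 50% of each list, 0 members were in the knockout alone in place of 1 (Tet1) and 2 regions in all lists in place of 4, and Dnmt3a and Uhrf1 were in 0 lists. Asking for a region that itself follows the genotype also gave 0, an alternative added after seeing the data. The members' median percentile was 95.3 among the best peaks of genes. By base pairs, the 3′ untranslated region held 11.6% and exons with no finer class 40.1% of the member peaks. Leaving out 1 library gave 0 to 2 regions in wild type alone (2 without wild type 1, 1 without knockout 1) and 0 to 2 in the knockout alone (1 without knockout 1, 2 without knockout 2), since 1 list then stands for a genotype. No paired analysis was possible because the wild-type labels carry no replicate numbers and no value comes from a fitted model. Depth is unknown here.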

Other observations

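The folds of weak peaks were evenly spaced within each list. Between folds of 6 and 10, 86.9% of the peaks of wild type 1 lay within 0.005 of a whole multiple of 0.723, 83.2% of those of wild type 2 of 0.74, 87.4% of those of knockout 1 of 0.801 and 80.6% of those of knockout 2 of 0.747. The steps were found in the data, and what a step stands for is not given in the sources used here. Of the 17 weak member peaks, with folds from 2.51 to 21.7, 12 lay on the steps of their lists. These were all 8 weak Tet3 peaks, at 12 to 23 steps, both weak Tet2 peaks, at 7 and 10 steps, and 2 Dnmt3a peaks. Both Tet3 peaks at a fold of 8.88 in wild type 2 were at 12 steps, a fold that 372 peaks of that list share. Both at 12 in knockout 1 were at 15 steps, a fold that 378 peaks of that list share. The Dnmt3a peaks of wild type 1 and knockout 1 were at 30 and 11 steps, and those of wild type 2 and knockout 2 lay off the steps, as did the Uhrf1 peaks and the weak Tet1 peak.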
